A study of Mus musculus with 6 samples.

Results

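Chromosomal DNA is copied by 3 multi-subunit polymerases, and their genes were followed here in bone marrow stromal cells (BMSC) recovered from the stroke-injured mouse brain. The genes were chosen by name as subunits of polymerase alpha with its primase (Pola1, Pola2, Prim1, Prim2), polymerase delta (Pold1, Pold2, Pold3) and polymerase epsilon (Pole, Pole2), 9 of the 18193 genes measured. A probe set, a group of short probes for one transcript, was used only where its annotation names exactly 1 gene. Where a gene has several, the one with the highest mean log2 signal over the 6 arrays stood for it and the others were kept as a check.

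iLarge T BMSC were compared with the naïve Large T BMSC from which they came. Both carry the H-2Kb-tsA58 transgene of the Immortomouse (CBA/ca × C57Bl/10 hybrid), in which the H-2Kb promoter drives a temperature-sensitive SV40 large T antigen that keeps cells dividing at 33°C. For iLarge T BMSC, male C57BL/6 mice of 6 to 8 weeks had the left middle cerebral artery closed for 60 min, received naïve cells by vein 24 h after the stroke, and 14 days later gave up an infarcted hemisphere that was digested with collagenase and plated at 33°C. Both groups were passaged 3 times before freezing and were described by the submitters as fibroblastoid, and the age of the cell donors was not given in the sources used here. Each group has 3 Affymetrix arrays (iLarge T replicates 2, 4 and 6, naïve replicates 1, 3 and 5), each with RNA pooled from 3 hemispheres or 3 sets of naïve cells, so p-values measure only the spread between pools. The arrays report RNA of whole cultures, in which fewer dividing cells and less RNA per cell cannot be told apart.

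Polymerase alpha-primase starts every new strand: primase lays a short RNA and the polymerase extends it with a little DNA. Polymerase delta then takes over mainly on the lagging strand, and polymerase epsilon copies mainly the leading strand while bound to the helicase. Genes for these subunits are known targets of the E2F transcription factors and are switched on as a cell enters S phase.

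The stretches around the start sites of the genes that hold an E2F word are shown because the genes moved together across the arrays, as described below. They come from RefSeq on build GRCm38.p6, whose table gave promoters of 300 bases (250 before and 50 after the start) for 7 of the 9 genes, all but Pole and Prim2. These 7 genes have 8 promoters. The words searched on both strands were TTTCCCGC, TTTGGCGC, TTTCGCGC and TTTGCCGC, and then the same words without their first T. Matches are in capitals, 5′ to 3′ on the strand of the gene.
Prim1, chr10:128015095-128015244, plus strand: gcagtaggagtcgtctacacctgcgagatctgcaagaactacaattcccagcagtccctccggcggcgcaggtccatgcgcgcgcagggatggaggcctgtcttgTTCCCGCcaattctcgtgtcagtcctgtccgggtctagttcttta
Pola1, chrX:93632126-93632335, minus strand: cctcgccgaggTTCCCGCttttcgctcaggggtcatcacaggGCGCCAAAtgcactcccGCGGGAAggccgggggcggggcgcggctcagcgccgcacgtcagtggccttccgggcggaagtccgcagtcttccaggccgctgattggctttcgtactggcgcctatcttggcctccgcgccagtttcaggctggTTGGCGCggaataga
Pole2, chr12:69228161-69228310, minus strand: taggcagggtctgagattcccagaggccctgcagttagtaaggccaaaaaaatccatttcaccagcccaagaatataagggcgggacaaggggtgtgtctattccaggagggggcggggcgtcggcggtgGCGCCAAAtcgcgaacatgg
Pold3, chr7:100121473-100121622, minus strand: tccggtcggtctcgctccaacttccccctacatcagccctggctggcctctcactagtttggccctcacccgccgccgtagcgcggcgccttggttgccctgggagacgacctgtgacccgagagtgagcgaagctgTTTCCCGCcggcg
Pold1, chr7:44548766-44548795, minus strand: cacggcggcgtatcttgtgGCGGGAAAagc

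A full 8-letter word lay in the promoters of 4 of the 7 genes (Pola1, Pold1, Pold3, Pole2), against 2.26% of all 32851 promoters of that length. With 7 letters, Prim1 joined them, which made 5 of 7 genes against 9.57% of all promoters. The counts are of genes and the shares of promoters, so the units differ. Pola1 held 4 matches, between positions -169 and 22 from the start, whereas Pold1, Pold3 and Pole2 had their only match after the start, from position 40, 18 and 11 onward. The CCAAT box, searched on both strands as CCAAT, was found in Pola1, Pold2 and Prim1, against 37.4% of all promoters, and in Prim1 its first base was the last base of the E2F word. Pola2 had none of these words in its window. A match is a description of letters, not a bound site, and the words were chosen with these promoters in view.

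A few facts of the arrays precede the results. Log2 signals correlated at 0.845 to 0.863 among iLarge T arrays, at 0.829 to 0.892 among naïve arrays and at 0.789 to 0.824 between the groups. iLarge T replicate 6 stood apart with markers of other cell types: the 6 leukocyte markers summed to a signal of 32320, against 5310 and 3929 on iLarge T replicates 2 and 4 and 2283 to 10729.6 on naïve arrays, and the 4 endothelial markers to 29824, against 3402 to 9289 on the other 5 arrays. Ptprc, the pan-leukocyte antigen, read 4440.4 there and 206 or less elsewhere. The mean of the 9 polymerase genes on that array lay between those of the other iLarge T arrays. Of 10 stromal markers, Pdgfrb and Cd44 were called higher and Vcam1 lower in iLarge T BMSC, and their summed signals were 325624 to 498736 in iLarge T and 214416 to 294923 in naïve BMSC. Csf1r of the leukocyte and Cdh5 of the endothelial list were called higher and Tek, an endothelial receptor, lower. No neural marker of 6 was called by limma (1 had an unadjusted p under 0.05). Their sum was 5469 on iLarge T replicate 6 and 2178 to 3679 on the other 5 arrays. Most of that 5469 was Gfap, the astrocyte filament protein, which read 3104 there and 446 or less elsewhere. Aqp4 (406) and Mbp (1136) were highest there by a small margin only, and Rbfox3 (289), Syp (194) and Map2 (341) were not highest there. Naïve replicate 1 differed from replicates 3 and 5 in its 7 proliferation markers, which averaged 1.05 higher on the log2 scale, while the 9 polymerase genes averaged 0.40 lower.

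All 9 genes had lower signals in iLarge T BMSC, by 2.59-fold for Pold3 to 16.8-fold for Pole. On every gene the highest of the 3 iLarge T arrays was below the lowest of the 3 naïve arrays, which held for 13.1% of all genes. With limma (Benjamini-Hochberg adjustment over 45037 probe sets, a call at adjusted p under 0.05 and at least 2-fold), 8 of the 9 were called lower and Pold3 was not. Over all genes, 3.26% were called lower and 6.8% in either direction. Without naïve replicate 1 the share of all genes called lower rose to 6.67%, and without any other single array it fell to between 1.28% and 1.95%. The median log2 fold change, iLarge T minus naïve and given below with the standard error (SE) of limma, was -3.01 over the 9 genes and 0.06 over all genes. The size of the changes does not rest on the test, but the calls do: limma lets the spread depend on signal strength, and without that trend 0 of 9 genes were called (adjusted p from 0.0503 to 0.186). The unpaired test named in the methods also called 0 of 9, on log2 values (adjusted p from 0.0740 to 0.207) and on linear signals (adjusted p from 0.0519 to 0.268), although each of the 9 had an unadjusted p under 0.05 in all 3 of these tests. Over all 18193 genes, limma without the trend called 48 lower (0.26%). The unpaired test called 7 lower on log2 values (0.04%) and 36 on linear signals (0.20%), so 0 of 9 says little about these genes.

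**Figure D1:**
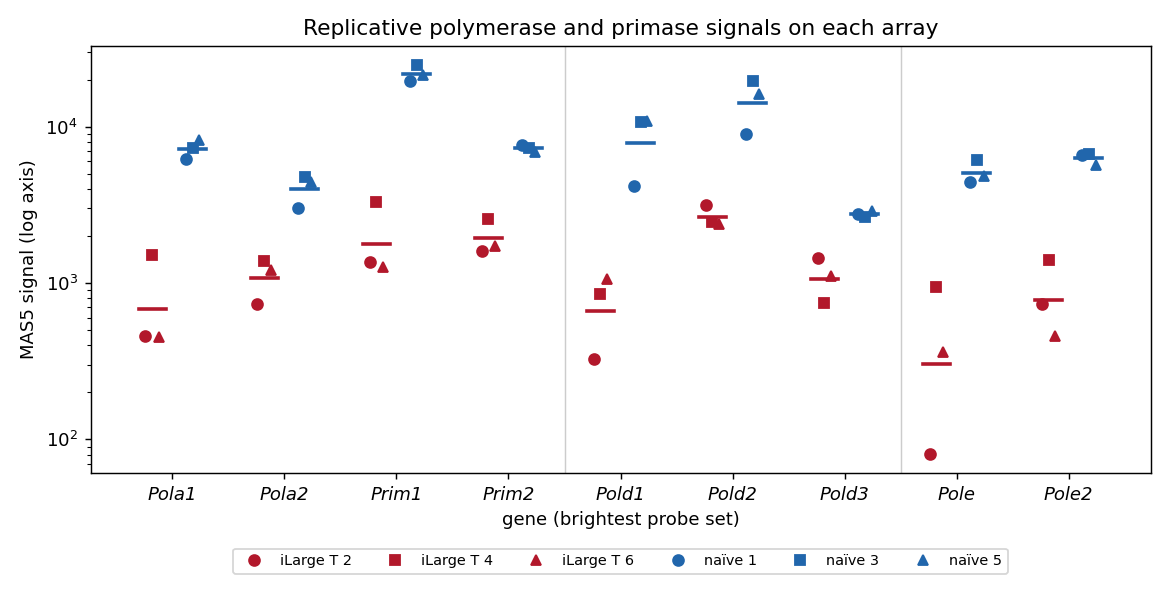
MAS5 signal (log axis) of the brightest probe set of each gene on each array, iLarge T in red and naïve in blue, with bars at the geometric means. The red points lie below the blue points for all 9 genes, with the narrowest gap at Pold3 (1.81-fold) and the widest at Prim1 (5.97-fold).

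Among the subunits that start a strand, Prim1, which carries the catalytic site of primase, had the largest fitted change. The test of its difference from Pola1, given further on, does not order these genes. Prim1 read 1360.5, 3295 and 1267 on iLarge T replicates 2, 4 and 6, against 19668, 24682 and 21471 on naïve replicates 1, 3 and 5. iLarge T replicate 4 was the highest of its group, and still 5.97-fold below the lowest naïve array. The means were 1974 ± 1145 in iLarge T and 21940.4 ± 2540 in naïve BMSC (SD, n = 3 each), a 12.2-fold decrease (log2 fold change -3.61, SE 0.37, adjusted p = 0.00108 from limma). Its second probe set gave -3.77 (SE 0.40, adjusted p = 0.00118 from limma).

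Pola1, the catalytic subunit of polymerase alpha, read 456, 1503 and 455 in iLarge T and 6183, 7292 and 8272 in naïve BMSC. Again iLarge T replicate 4 was well above the other arrays of its group, without reaching any naïve array. The means were 805 ± 605 in iLarge T and 7249 ± 1045 in naïve BMSC (SD, n = 3 each), a 10.6-fold decrease (log2 fold change -3.41, SE 0.47, adjusted p = 0.00390 from limma). A second, dim probe set was near background, taken as signals under the 40th percentile of their array (183 to 299.6), on all 6 arrays, and gave -0.81 (SE 1.55).

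The non-catalytic partners had the smaller fitted changes, and the differences are tested further on. Pola2, the regulatory B subunit of polymerase alpha, read 733, 1376 and 1211 in iLarge T and 3041, 4788 and 4449 in naïve BMSC. The arrays did not overlap, and the log2 fold change was -1.91 (SE 0.36, adjusted p = 0.0160 from limma), or 3.76-fold lower. Its call was lost without iLarge T replicate 2 (adjusted p = 0.0514), naïve replicate 3 (0.0951) or naïve replicate 5 (0.0783). Of its 2 other probe sets, neither was called. The first gave 0.78 (SE 0.93), near background on the naïve arrays but at 802 and 377 on iLarge T replicates 2 and 4. The other was dim and gave -1.68 (SE 1.57).

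Prim2, the large primase subunit, read 1613, 2557 and 1736 in iLarge T and 7640.1, 7339.9 and 6879 in naïve BMSC. The naïve arrays lay close together, and no iLarge T array came near them. The log2 fold change was -1.92 (SE 0.28, adjusted p = 0.00529 from limma), or 3.78-fold lower, and a second probe set gave -1.91 (SE 0.28). Its other probe set was near background on all 6 arrays and was not called (-1.15, SE 1.21).

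Of polymerase delta, the catalytic subunit Pold1 read 329, 847 and 1062 in iLarge T and 4155, 10675 and 10948 in naïve BMSC. Both groups were uneven: iLarge T replicate 2 and naïve replicate 1 were the low arrays of their groups, naïve replicate 1 by 1.38 on the log2 scale below the mean of the other naïve arrays. The log2 fold change was -3.56 (SE 0.52, adjusted p = 0.00525 from limma), or 11.8-fold lower. A second probe set, of a type that may match similar sequences, had no such low naïve array and gave -3.05 (SE 0.32, adjusted p = 0.00114 from limma).

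Pold2, the B subunit of polymerase delta, is measured by 1 probe set. It read 3139.9, 2452 and 2387 in iLarge T and 8961 on naïve replicate 1, 19632 on replicate 3 and 16191 on replicate 5. The iLarge T arrays were alike, and naïve replicate 1 was again the low one, by 0.99 on the log2 scale. The decrease was 5.37-fold (log2 fold change -2.43, SE 0.33, adjusted p = 0.00347 from limma).

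Pold3, the subunit that ties polymerase delta to the sliding clamp, had the smallest difference by brightest probe set. Its brightest probe set read 1447, 749 and 1105 in iLarge T and 2763, 2626 and 2884 in naïve BMSC. Here the naïve arrays were nearly equal and iLarge T replicate 4, high for most of the genes, was the lowest array. The log2 fold change was -1.38 (SE 0.35) and missed the threshold narrowly (adjusted p = 0.0574 from limma). With the same log2 fold change it passed without dim probe sets (0.0433), with a floor at the 40th percentile (0.0408) and with arrays of like spike-in levels as a block (0.0364), and of the single arrays left out only without naïve replicate 1 (-1.37, 0.0429). Both other probe sets of Pold3 were called lower, with log2 fold changes of -2.17 (SE 0.43, adjusted p = 0.0201 from limma) and -2.05 (SE 0.40, adjusted p = 0.0188 from limma), so the choice of probe set decides the call. It also decides the rank, as both changes were larger than those of Pola2 (-1.91) and Prim2 (-1.92).

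Pole, the catalytic subunit of polymerase epsilon, had the largest fitted difference of the 9 and the largest error. It read 81.0, 939 and 364 in iLarge T and 4442, 6136 and 4821 in naïve BMSC. The iLarge T arrays spread widely, and replicate 2 was under the 40th percentile of its array, so the fold rests in part on background. The log2 fold change was -4.07 (SE 0.75, adjusted p = 0.0138 from limma). Leaving out iLarge T replicate 2 gave -3.12, and leaving out replicate 4 gave -4.89, and the call was lost without iLarge T replicate 6 (adjusted p = 0.0528) or naïve replicate 3 (0.0629). Pole has 1 probe set.

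Pole2, the B subunit of polymerase epsilon, read 732, 1398 and 459 in iLarge T and 6547, 6662.5 and 5650.3 in naïve BMSC. iLarge T replicate 4 was the highest of its group and the naïve arrays lay close together. The log2 fold change was -3.01 (SE 0.41, adjusted p = 0.00386 from limma), or 8.07-fold lower. Its second probe set was dim, overlapped between the groups and was not called (-2.89, SE 1.59).

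Over all probe sets, 13 of the 19 were called lower, against 2.27% of the 45037 tested. The 6 others were the brightest of Pold3 and 5 dim ones of Pola1, Pola2, Prim2 and Pole2. Pola2 had the only positive value, on a probe set near background on the 3 naïve arrays.

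**Figure D2:**
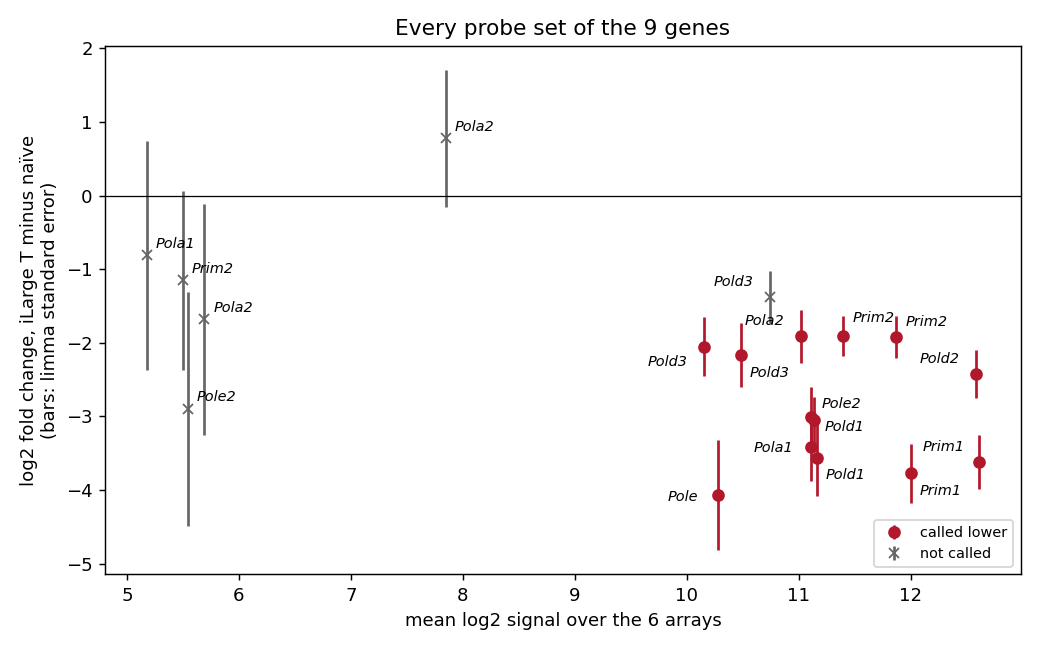
Log2 fold change, iLarge T minus naïve, of each of the 19 probe sets against its mean log2 signal over the 6 arrays, with limma SEs as bars, filled circles for called and crosses for not called. The 5 dim probe sets on the left have wide errors, and of the bright ones only 1 of Pold3 was not called.

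The 9 genes moved together from array to array. Each was centered on its mean log2 signal and set against the mean of the other 8, which gave correlations of 0.806 (Pold3) to 0.992 (Prim1) over 6 arrays, a description that holds the group difference itself. The mean of the 9 centered genes was -1.86, -0.85 and -1.51 on iLarge T replicates 2, 4 and 6 and 1.14, 1.59 and 1.49 on naïve replicates 1, 3 and 5. Within iLarge T BMSC, replicate 4 was the highest array for 6 genes (Pola1, Pola2, Prim1, Prim2, Pole, Pole2), replicate 2 for Pold2 and Pold3, and replicate 6 for Pold1. Within naïve BMSC, replicate 1 was the lowest array for 6 genes (Pola1, Pola2, Prim1, Pold1, Pold2, Pole).

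Whether subunits of one enzyme shifted by the same amount was asked for 9 pairs, with the log2 ratio of the 2 genes on each array and an exact two-sided permutation test, whose smallest possible p for 3 against 3 arrays is 0.1. The catalytic subunit had the more negative log2 fold change, by a difference of -1.50 for Pola1 minus Pola2 (SE 0.46), -1.70 for Prim1 minus Prim2 (SE 0.27), -1.13 for Pold1 minus Pold2 (SE 0.66) and -2.18 for Pold1 minus Pold3 (SE 0.87). In these 4 pairs the ratios of the groups did not overlap, and each had the smallest p of 0.1 (exact permutation test; 0.225 after adjustment over the 9 pairs), so none can pass the threshold in this design. With the most variable probe set of each gene, Pold1 minus Pold3 was -1.39 (exact permutation p = 0.3) and Pola1 minus Pola2 was 0.87 (0.2). The Pola1 and Pola2 probe sets used there were dim. Prim1 minus Prim2 was -2.62 there, but with a Prim2 probe set near background on all 6 arrays, so it is no check. Pold1 minus Pold2 (-1.13) used the same probe sets as before, so its value could not change. Pole minus Pole2 was -1.06 (SE 0.92, exact permutation p = 0.2) and their ratios overlapped. Without iLarge T replicate 2 this difference was -0.15, Pold1 minus Pold2 was -0.50 and Pold1 minus Pold3 was -1.45. Pola1 minus Prim1 was 0.21 (SE 0.18, exact permutation p = 0.4). Between catalytic subunits it was 0.15 for Pola1 minus Pold1 (SE 0.72), 0.66 for Pola1 minus Pole (SE 0.69) and 0.51 for Pold1 minus Pole (SE 0.76), with exact permutation p of 0.9, 0.6 and 0.6, and errors too wide to order the 3 enzymes.

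Of the 3 small subunits none was called by limma (2 had an unadjusted p under 0.05), and none by the unpaired test of the methods. That unpaired test also called none of the replicative genes, and of 18193 genes only 7 lower on log2 values and 36 on linear signals. Its lack of calls therefore says little about the small subunits. Pold4, the smallest subunit of polymerase delta, read 10015, 8640.1 and 8235 in iLarge T and 3210.2, 5560.5 and 5097 in naïve BMSC. All iLarge T arrays were above all naïve arrays, with a log2 fold change of 0.99 (SE 0.28) that was not called (adjusted p = 0.0833 from limma). Pole3 and Pole4, histone-fold subunits of polymerase epsilon, gave -0.89 (SE 0.29, adjusted p = 0.124 from limma) and -0.33 (SE 0.26, adjusted p = 0.592 from limma). Pole3 did not overlap between the groups and was called lower without naïve replicate 1 (adjusted p = 0.0124), while Pole4 overlapped.

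DNA polymerases with other tasks, in repair, bypass of damaged bases and mitochondria, were not called by limma in either direction (0 of 15). Of these, 8 had an unadjusted p under 0.05 from limma, as had 7901 of the 45037 probe sets tested. The unpaired test of the methods called 0 of them, but it called 0 of the replicative genes too. With only 7 of 18193 genes called lower on log2 values and 36 on linear signals, that test says little about these other polymerases. Their median log2 fold change was -0.68, and 14 of 15 were negative, against 8637 of all 18193 genes. Polk, a polymerase that bypasses damaged bases, read 9416, 6963 and 5743 in iLarge T and 4880.2, 1299 and 2019 in naïve BMSC. It was the only one with a positive value, 1.63 (SE 0.45, adjusted p = 0.0778 from limma), with no overlap between the groups. Mad2l2, a subunit of polymerase zeta, gave -1.49 (SE 0.40, adjusted p = 0.0667 from limma). Without naïve replicate 1, Polk was called higher (2.16, adjusted p = 0.00192), and Mad2l2 (-1.94, adjusted p = 0.00167) and Polb, the main polymerase of base excision repair (-1.01, adjusted p = 0.0435), were called lower. That omission raised the share of all genes called lower from 3.26% to 6.67%.

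**Figure D3:**
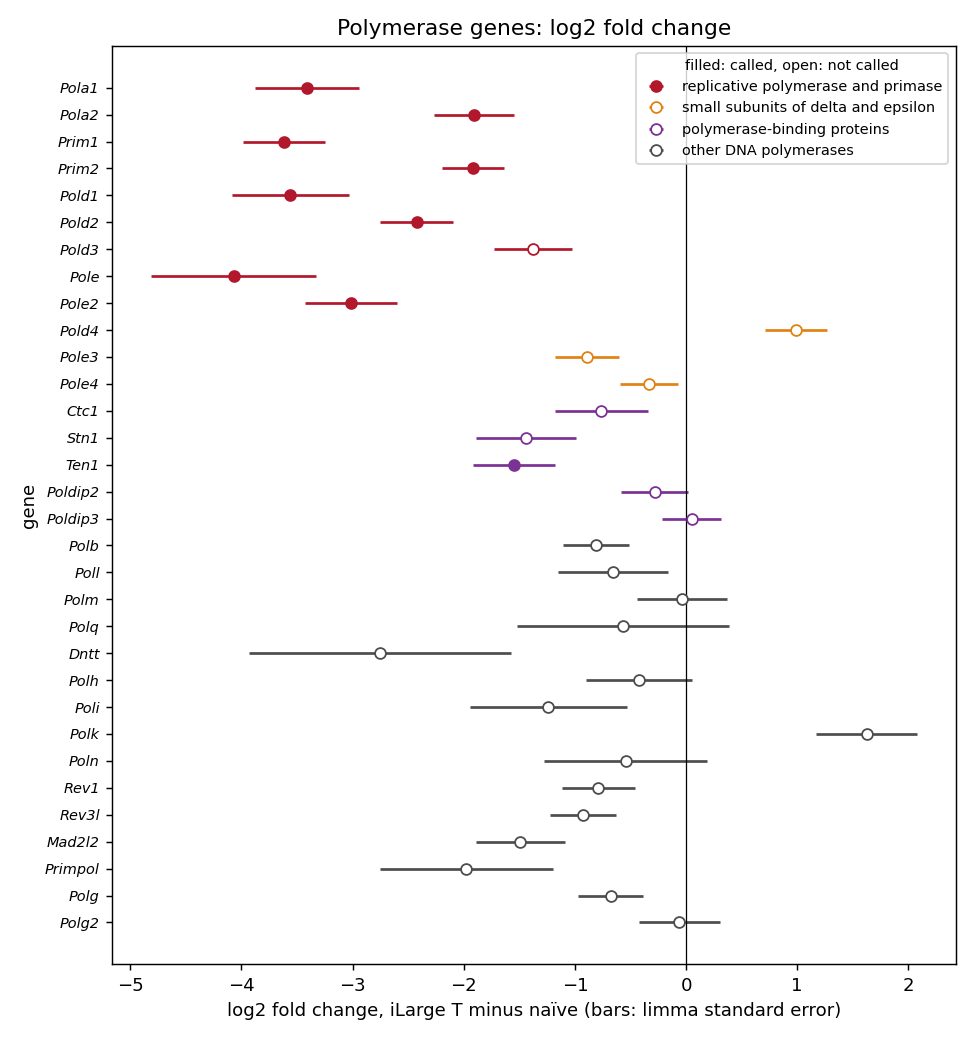
Log2 fold change, iLarge T minus naïve, with its limma SE, for the 9 replicative genes and 23 other polymerase genes and binding proteins, filled where called. The replicative genes lie between -4.07 and -1.38, and of the other 23 only Ten1 (-1.55) was called. Dntt (-2.76, SE 1.18), Primpol (-1.98, SE 0.78), Mad2l2 (-1.49) and Stn1 (-1.44) lie in that range too, without a call.

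Proteins that bind these polymerases gave 1 call among 5. Ten1, of the complex that brings polymerase alpha-primase to telomeres, had a log2 fold change of -1.55 (SE 0.37, adjusted p = 0.0452 from limma), which lost its call without any 1 array other than naïve replicate 1 (adjusted p from 0.0756 to 0.204). Its partner Stn1 was called only without naïve replicate 1 (-1.94, adjusted p = 0.00352). Poldip2 and Poldip3, which bind polymerase delta, gave -0.28 and 0.05.

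The partners at the replication fork, a list of 34 genes, were called lower in 25 cases and higher in 0, where 3.26% of all genes were called lower. Their log2 fold changes were negative in 34 of 34, with a median of -2.22, against 8637 negative of all 18193 genes. The helicase that unwinds the DNA had 10 of 11 genes called lower, the sliding clamp with its loaders 8 of 9, the factors joining and guarding the fork 3 of 5, those that finish Okazaki fragments 3 of 6, and the single-strand binding complex 1 of 3 (Rpa2, -2.19). Pcna, the sliding clamp that holds polymerase delta on DNA, read 22708, 30585 and 26585 in iLarge T and 95411, 82426 and 73794 in naïve BMSC. The groups lay far apart, with a log2 fold change of -1.66 (SE 0.23, adjusted p = 0.00437 from limma). The helicase subunits Mcm2 (-3.93, SE 0.48) and Mcm5 (-3.75, SE 0.34), the clamp loader subunit Dscc1 (-4.05, SE 0.48) and the fork protector Timeless (-3.23, SE 0.51) were among the largest changes. Of their iLarge T arrays, 2 of Dscc1 and 1 of Timeless were under the 40th percentile, as was 1 of Cdc45, which leaves their folds partly set by background. Cdc45 (-3.85, SE 0.85) lost its call without iLarge T replicate 6, naïve replicate 3 or naïve replicate 5 (adjusted p = 0.0869, 0.105 and 0.0876). Chtf18, a clamp loader subunit near background on the 3 iLarge T arrays, was at least 6.03-fold lower (adjusted p = 0.0349 from limma), with the naïve mean set against the 40th percentile of the iLarge T arrays, and lost its call without iLarge T replicate 2 or naïve replicate 3 or 5 (adjusted p = 0.0662, 0.142 and 0.125).

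Markers of dividing cells moved with the polymerases, and their part in the result was not tested. All 7 measured were called lower in iLarge T BMSC (3.26% of all genes were), with a median log2 fold change of -2.71. No groups overlapped, with iLarge T below naïve as in 13.1% of all genes. The unpaired test of the methods called 0 of the 7 on either scale, as did limma without the trend. With the trend and iLarge T replicate 6 left out, 3 of the 7 were called, and 4 without iLarge T replicate 2, whereas Mki67, Top2a and Aurkb kept the call with any array left out. Mki67, the proliferation antigen, read 1133, 2309.5 and 867 in iLarge T and 17732.5, 8239 and 7843 in naïve BMSC (log2 fold change -2.99, SE 0.44, adjusted p = 0.00527 from limma). Their summed signals were 8903 to 21824 in iLarge T and 57837 to 124395 in naïve BMSC. On naïve replicate 1 the mean of these markers was the highest and the mean of the 9 polymerase genes the lowest of the naïve arrays, although Prim2, Pold3 and Pole2 had their lowest naïve signal on another array.

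**Figure D4:**
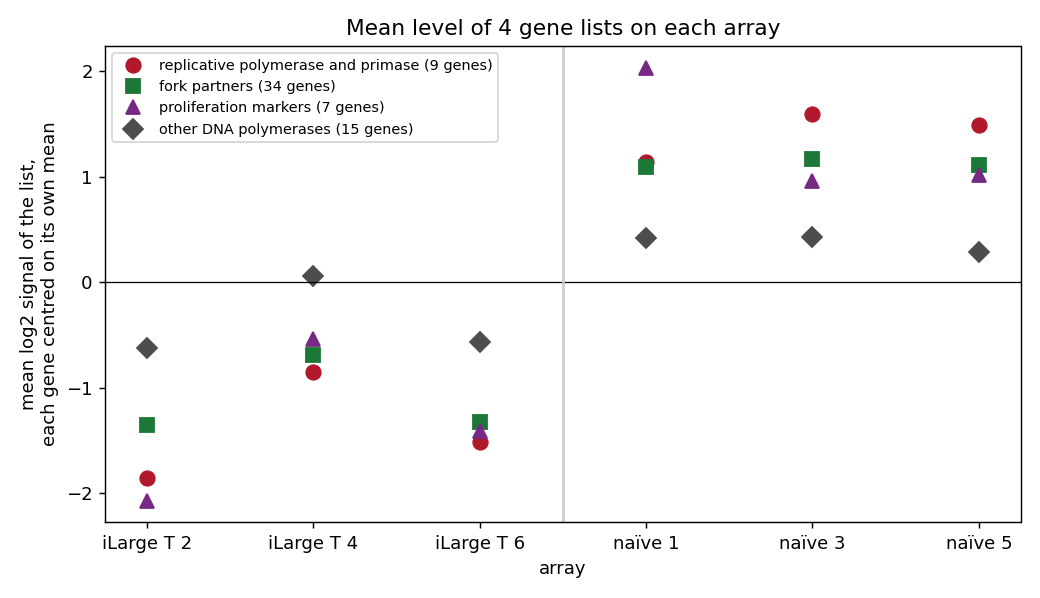
Mean log2 signal of 4 gene lists on each array, each gene centered on its own mean. The 9 polymerase genes lie between -1.86 and -0.85 on iLarge T and between 1.14 and 1.59 on naïve arrays, and on naïve replicate 1 the proliferation markers (2.03) lie above them.

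The genes whose log2 signals over the 6 arrays were most like the mean of the 9, among those at or above the median signal, were Cdkn2c, a cyclin-dependent kinase inhibitor (r = 0.999, log2 fold change -2.61), Hells, a chromatin remodeler (r = 0.999, -3.36), Ube2t, a ubiquitin-conjugating enzyme of crosslink repair (r = 0.998, -2.47), Rbl1, a retinoblastoma relative (r = 0.998, -2.89), and Msh6, of mismatch repair (r = 0.997, -2.33). They were picked for this likeness out of all such genes, so the values carry no test.

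How far each call rests on single arrays was asked by leaving out 1 at a time. Pola1, Prim1, Prim2, Pold1, Pold2 and Pole2 stayed called in all 6 cases, with adjusted p from limma of at most 0.0332. Pole was called in 4 of 6, Pola2 in 3 of 6 and Pold3 in 1 of 6. Without naïve replicate 1 and iLarge T replicate 6, the arrays that stand apart, 8 of 9 genes were called and the median log2 fold change was -2.68. Of all genes, 7.26% were called lower in that fit.

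**Figure D5:**
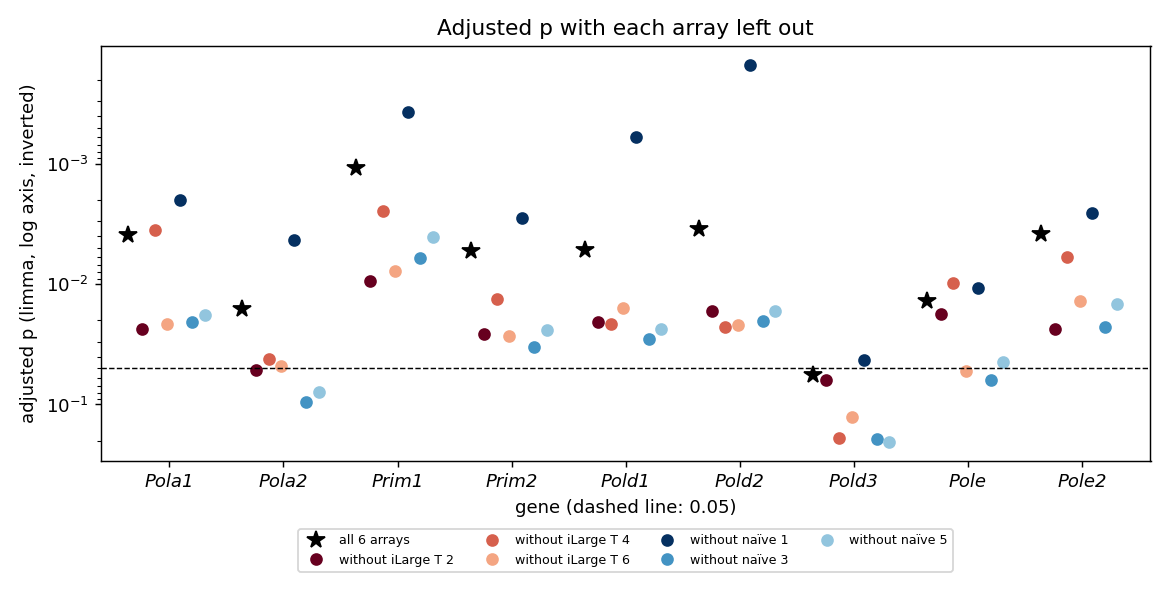
Adjusted p from limma (log axis, inverted) of each gene with all 6 arrays (star) and with each array left out (circles), and a dashed line at 0.05. Leaving out naïve replicate 1 gives every gene a smaller p, and takes Pold3 past the line (0.0429), whereas Pola2 and Pole lose their calls under other omissions. Over all genes that omission raises the share called lower from 3.26% to 6.67%, so the smaller p is not particular to these 9 genes.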

How the data were processed

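RNA of 3 iLarge T and 3 naïve pools was hybridized to Affymetrix Mouse Genome 430 2.0 arrays. The deposited values are intensity signals on a linear scale, made by the authors with the MAS5 algorithm (GeneChip Operating Software 1.2) and scaled to a trimmed mean of 2500 on each array. The table used here gives no detection calls. Of 45101 probe sets, 64 controls were left out, and 34945 of the 45037 others have 1 gene symbol, 932 several and 9160 none. By gene identifier, 34741 were found in the RefSeq table.

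Log2 signals were fitted with limma 3.58.1 in R 4.3.3 (lmFit, eBayes with an intensity trend), which was tested on simulated data. Subunit pairs, promoter words and figures used Python 3.11.15 with matplotlib 3.10.9, scipy 1.17.1, pandas 2.3.3 and numpy 2.4.6. A fold against a group whose arrays are all near background is a lower bound. No block was used in the main fit, since the groups share no replicate number. The number of arrays limits the precision.

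The genes, the lists and the tests were chosen with earlier results of these data known, and the lists come from general knowledge. Named are the 9 genes, the small subunits, up to 6 called genes of each list, genes behind counts of 5 or fewer and the 5 most alike; of the marker lists, not all of these are given. Alternatives were other tests, scalings, filters and floors, a pseudocount of 16, other probe sets, other fold thresholds and each array left out. A block over the 3 pairs of arrays with like spike-in levels and leaving out 2 arrays together were added after the data were seen.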

Additional observations from a re-analysis of the deposited data

How the results depend on the processing

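The labels give no pairing, as the groups share no replicate number, so the main fit was unpaired. The spike-in block pairs arrays by the levels of their control transcripts only. Of 162 values of the 9 genes under the alternatives, 120 stayed on their side of the threshold, 36 lost the call, 6 gained it (all of Pold3) and 0 changed sign. The genes called lower numbered 0 with the methods' t-test on either scale and with limma without the trend, and 5 with the most variable probe set, where Pola1, Pola2, Prim2 and Pole2 take dim ones. They numbered 6 to 9 with 1 array left out, 6 at 4-fold and with the mean of probe sets, and 9 with dim probe sets removed, with a floor at the 40th percentile and with spike-in pairs as a block. The median log2 fold change ranged from -3.44 to -2.43. Centering arrays on their median moved that of all genes to -0.14, against 0.06, and the 9 genes then ran up to -1.57.

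Fork partners called lower numbered 3 (Gins1, Gins4, Rfc4) and 4 (Mcm7, Gins2, Chtf18, Dna2) with the methods' t-test on log2 and on linear values, 6 with limma without the trend, and 19 to 26 with 1 array left out. Other polymerases called, 0 in the report, numbered 2 (Polk, Mad2l2) with the floor, with the spike-in block and without both arrays that stand apart, 1 (Polb) with the mean of probe sets, and 0 to 3 with 1 array left out. The cause was not tested.

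Differences between subunits turned sign for Pola1 against Pola2 with the most variable probe set (0.87), for Pold1 against Pole with the floor (-0.12), for Pola1 against Pold1 without iLarge T replicate 2 (-0.07), iLarge T replicate 4 (-0.25) or naïve replicate 3 (-0.06), in a range of -0.25 to 0.78 over single arrays left out, and for Pola1 against Pole without iLarge T replicate 2 (-0.0019, in a range up to 1.08).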
